A study of Mus musculus with 9 samples.

Results

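Genes of cholesterol synthesis, uptake and efflux were followed in RNA of small intestine taken from mice with acute graft-versus-host disease, an attack of donor immune cells on host tissue. The 31 genes were named by symbol, and each matched 1 of 48708 genes of the count table: 21 enzymes of the pathway, 5 regulators and 5 genes of sterol transport and esterification. All 31 passed the filter on low counts that left 16539 genes for testing. The 9 libraries came from C57BL/6 mice of postnatal week 8 in 3 groups of 3: Ripk3-KO (genotype label RIPK3-/-, deleted in the whole body), VilCre-Ripk3fl/fl (genotype label Villin-cre. RIPK3fl/fl, where the Villin promoter drives Cre in the intestinal epithelium) and wild type (WT). The product of Ripk3 is a kinase needed for necroptosis, a lytic kind of programmed cell death. The labels do not give the genotype of the transplanted cells, the sex of the mice or whether each library came from a separate mouse. The p-values therefore rest on the spread among the 3 libraries of a group, and that spread may be technical.

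Total counts per library ranged between 36618034 and 41038990 for Ripk3-KO, 25375499 and 29410940 for VilCre-Ripk3fl/fl, and 27810868 and 32225648 for WT. Levels are given as CPM, counts relative to library size after scaling by TMM factors. Ripk3 itself was at 3.61 ± 0.242 CPM in Ripk3-KO and 6.45 ± 0.911 CPM in VilCre-Ripk3fl/fl, against 113 ± 0.979 in WT (SD, n = 3 each). Sex markers differed too. Xist, made from the silenced X chromosome, averaged 276 ± 5.75 CPM in Ripk3-KO and 7.50 ± 0.415 CPM in VilCre-Ripk3fl/fl, against 8.46 ± 1.99 in WT. The Y-linked Ddx3y averaged 0.477 ± 0.213 CPM in Ripk3-KO and 38.1 ± 4.58 CPM in VilCre-Ripk3fl/fl, against 39.8 ± 1.72 in WT, so sex and the whole-body deletion cannot be told apart.

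Cells make cholesterol from acetyl-CoA. The first steps build mevalonate and isoprenoid units, squalene is formed and closed into lanosterol, and the last steps trim and reduce the ring system to cholesterol. The SREBP transcription factors, encoded by Srebf1 and Srebf2, switch these genes on. Scap escorts SREBP out of the endoplasmic reticulum when sterol is low, and Insig proteins hold it back when sterol is plentiful. Enterocytes of the small intestine have in addition Npc1l1, which takes up cholesterol from the lumen, Soat2, which esterifies it for chylomicrons, and the paired half-transporters Abcg5 and Abcg8, which return sterols to the lumen.

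Promoter windows from RefSeq (GRCm38.p6, 250 bases before to 50 after the start of transcription) were matched for 25 of the 31 genes. A sterol regulatory element, the site bound by SREBP, was searched as TCACNCCAC on both strands, and the CCAAT box, bound by the factor NF-Y that works beside SREBP at many of these promoters, as CCAAT on both strands. The element occurred in 1 of the 25 genes (4.0%), Hmgcs1, against 1.44% of 27025 mouse genes with a window. Its copy read TCACCCCAC and began at position -137. Only exact copies of the pattern were counted, so elements that differ from it could be missed. The Hsd17b7 and Srebf2 windows below each hold a stretch 1 letter away from it, which was not counted. CCAAT occurred in 23 of the 25 (92.0%), against 41.1% of all genes. Hmgcs1 is shown as the enzyme that holds the sterol element. The other 3 windows were chosen after the values were seen, and belong to a late enzyme with the lowest ratio to WT in Ripk3-KO, the main sterol regulator and to the uptake transporter. Capitals mark both motifs on either strand (ATTGG is CCAAT on the other strand).
Hmgcs1, chr13:119690101-119690400, plus strand: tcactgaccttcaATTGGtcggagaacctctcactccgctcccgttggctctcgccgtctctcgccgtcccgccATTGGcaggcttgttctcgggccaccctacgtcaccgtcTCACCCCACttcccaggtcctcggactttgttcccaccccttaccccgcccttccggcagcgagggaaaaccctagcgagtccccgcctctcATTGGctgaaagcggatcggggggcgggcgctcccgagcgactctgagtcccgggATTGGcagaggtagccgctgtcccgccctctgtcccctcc
Hsd17b7, chr1:169969156-169969455, minus strand: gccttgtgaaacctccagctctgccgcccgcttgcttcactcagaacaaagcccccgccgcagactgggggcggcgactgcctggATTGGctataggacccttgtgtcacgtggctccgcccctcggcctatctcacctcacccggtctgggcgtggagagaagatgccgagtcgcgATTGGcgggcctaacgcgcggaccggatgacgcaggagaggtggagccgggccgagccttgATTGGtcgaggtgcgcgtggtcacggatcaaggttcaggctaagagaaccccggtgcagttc
Srebf2, chr15:82147019-82147318, plus strand: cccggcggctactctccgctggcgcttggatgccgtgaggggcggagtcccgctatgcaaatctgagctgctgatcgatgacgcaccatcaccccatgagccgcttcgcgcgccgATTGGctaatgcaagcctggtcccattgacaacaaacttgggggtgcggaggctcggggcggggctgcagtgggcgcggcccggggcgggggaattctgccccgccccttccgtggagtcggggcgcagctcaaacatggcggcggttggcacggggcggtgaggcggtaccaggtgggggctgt
Npc1l1, chr11:6230196-6230495, minus strand: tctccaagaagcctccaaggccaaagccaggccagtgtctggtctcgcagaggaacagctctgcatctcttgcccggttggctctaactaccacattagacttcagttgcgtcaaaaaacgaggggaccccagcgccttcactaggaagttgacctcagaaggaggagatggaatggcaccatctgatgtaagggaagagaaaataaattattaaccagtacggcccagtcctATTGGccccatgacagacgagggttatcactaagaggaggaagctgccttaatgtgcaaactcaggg
Hmgcs1 held 4 CCAAT boxes and the sterol element, Hsd17b7 held 3, and Srebf2 and Npc1l1 held 1 each. A match is a description of letters, and binding was not measured.

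Between the groups, most enzymes were lower in CPM in both deletions than in WT while the uptake and efflux transporters were higher, as the heat map shows. In Ripk3-KO against WT 24 of the 31 genes were called (adjusted p under 0.05 over all genes tested), 17 lower and 7 higher, where 55.4% of all genes were called, 28.1% lower and 27.3% higher. Their median log2 fold change was -0.32, beside 0.01 over all genes. In VilCre-Ripk3fl/fl against WT 27 were called, 22 lower and 5 higher, where 55.6% of all genes were called, 28.4% lower and 27.2% higher, and the median was -0.58, beside 0.02 over all genes. Both comparisons share the WT libraries and are not independent. In Ripk3-KO against VilCre-Ripk3fl/fl 23 were called, 21 higher in Ripk3-KO and 2 lower, where 31.7% of all genes were called, 16.6% higher and 15.1% lower, with a median of 0.22, beside 0.01 over all genes. Libraries of the 2 groups did not overlap for 26, 28 and 23 of the 31 genes in the 3 comparisons, where 63.5%, 61.4% and 40.8% of all genes did not overlap.

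**Figure D1:**
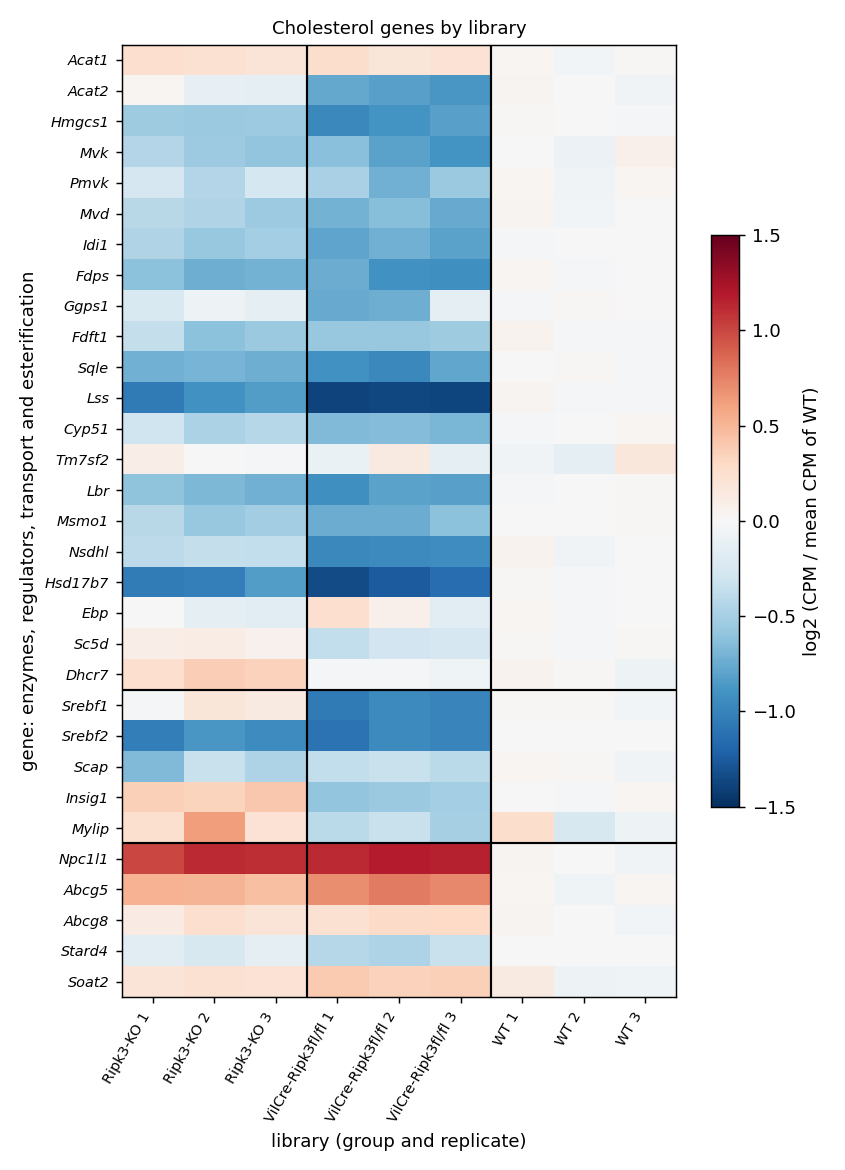
Each cell is log2 of a library's CPM over the mean CPM of WT, for 31 genes (rows: enzymes in pathway order, regulators, then transport and esterification) in 9 libraries (columns). Most enzyme rows are blue (lower) in Ripk3-KO and deeper blue in VilCre-Ripk3fl/fl, and Npc1l1 and Abcg5 are red (higher) in both.

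From Hmgcs1 to Fdps, the enzymes of the early steps were lower in both deletions. Of all 21 enzymes, 14 fell and 2 rose in Ripk3-KO (median log2 fold change -0.47), where 28.1% of all genes were lower and 27.3% higher. In VilCre-Ripk3fl/fl 17 fell and 1 rose (median -0.70), where 28.4% of all genes were lower and 27.2% higher. Hmgcs1 (mm10 chromosome 13, 119690462 to 119708086), which makes HMG-CoA, had 269, 264 and 267 CPM in Ripk3-KO and 199, 209 and 221 CPM in VilCre-Ripk3fl/fl, against 394, 388 and 384 CPM in WT. The 3 groups did not overlap. Hmgcs1 fell 1.46-fold in Ripk3-KO (log2 fold change -0.55, SE 0.046, adjusted p = 1.91e-10) and 1.85-fold in VilCre-Ripk3fl/fl (-0.89, SE 0.047, 1.79e-14). The kinases Mvk and Pmvk, which phosphorylate mevalonate and its phosphate, and the decarboxylase Mvd fell by 0.53, 0.32 and 0.47 on the log2 scale in Ripk3-KO and by 0.77, 0.58 and 0.70 in VilCre-Ripk3fl/fl. Idi1, which interconverts the isoprenoid units, averaged 160 ± 6.60 CPM in Ripk3-KO and 133 ± 4.13 CPM in VilCre-Ripk3fl/fl, against 228 ± 1.70 in WT (adjusted p = 1.02e-09 and 5.19e-13 against WT). Fdps (chromosome 3, 89093588 to 89101959), which joins the units to farnesyl diphosphate, had 172, 158 and 160 CPM in Ripk3-KO and 157, 140 and 139 CPM in VilCre-Ripk3fl/fl, against 268, 259 and 262 CPM in WT. Both deletions were below every WT library, by 1.61-fold and 1.81-fold (adjusted p = 2.21e-11 and 4.38e-13). Ggps1, which makes geranylgeranyl diphosphate for protein prenylation, was at 13.6, 15.1 and 14.3 CPM in Ripk3-KO (not called, adjusted p = 0.324) and at 9.43, 9.54 and 14.4 CPM in VilCre-Ripk3fl/fl (1.42-fold lower, adjusted p = 0.00184), against 15.6, 16.0 and 15.9 CPM in WT. VilCre-Ripk3fl/fl library 3 was within the range of the Ripk3-KO libraries and apart from the other two. The log2 fold change was -0.74 without it, against -0.51 with it.

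The thiolases that supply acetoacetyl-CoA did not move together. Acat2, the cytosolic enzyme that feeds sterol synthesis, had 105, 94.7 and 92.7 CPM in Ripk3-KO and 60.4, 58.4 and 56.1 CPM in VilCre-Ripk3fl/fl, against 105, 104 and 99.4 CPM in WT. The Ripk3-KO libraries overlapped WT (adjusted p = 0.255, or 0.0420 without Ripk3-KO library 1), and every VilCre-Ripk3fl/fl library was below both other groups, 1.76-fold lower than WT (adjusted p = 7.99e-12). Its level was 1.67-fold higher in Ripk3-KO than in VilCre-Ripk3fl/fl (adjusted p = 9.87e-11). Acat1, the mitochondrial enzyme, which also works in ketone body metabolism, averaged 168 ± 3.64 CPM in Ripk3-KO and 168 ± 4.64 CPM in VilCre-Ripk3fl/fl, against 144 ± 4.01 in WT, and rose 1.17-fold in each (adjusted p = 0.000228 and 0.000261), though not in the authors' TPM for VilCre-Ripk3fl/fl.

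Among the enzymes that form and demethylate the ring were Hsd17b7 and Lss, which had the largest decreases of the 21 enzymes in both deletions. Sqle, which oxidises squalene, had 100.4, 102 and 99.6 CPM in Ripk3-KO and 87.6, 84.6 and 95.8 CPM in VilCre-Ripk3fl/fl, against 166, 166 and 162 CPM in WT. It fell 1.64-fold and 1.85-fold (adjusted p = 6.72e-12 and 1.54e-13). Fdft1, which forms squalene, fell 1.42-fold in Ripk3-KO and 1.47-fold in VilCre-Ripk3fl/fl (adjusted p = 2.80e-08 and 7.31e-09). Fdft1 lies 7.36 Mb from Ripk3 on chromosome 14, and 18.3% of its exon bases overlap Ctsb, a more abundant gene on the other strand. Lss (chromosome 10, 76531588 to 76557138), which closes squalene epoxide into lanosterol, had 41.3, 45.9 and 48.2 CPM in Ripk3-KO and 32.7, 33.4 and 33.0 CPM in VilCre-Ripk3fl/fl, against 88.4, 84.5 and 85.0 CPM in WT. The groups were fully apart, with Lss 1.90-fold lower in Ripk3-KO (log2 fold change -0.93, SE 0.061, adjusted p = 1.76e-12) and lower still in VilCre-Ripk3fl/fl (-1.38, SE 0.064, 1.70e-15). Hsd17b7 (chromosome 1, 169949535 to 169969241), a ketosteroid reductase of the demethylation complex, had 27.5, 28.0 and 31.9 CPM in Ripk3-KO and 22.4, 23.9 and 25.9 CPM in VilCre-Ripk3fl/fl, against 57.9, 55.7 and 57.4 CPM in WT. It fell 1.95-fold (adjusted p = 1.89e-11) and 2.37-fold (3.42e-13). Its partners Msmo1, the methyl oxidase, and Nsdhl, the decarboxylating dehydrogenase, fell 1.42-fold and 1.29-fold in Ripk3-KO, and 1.62-fold and 1.94-fold in VilCre-Ripk3fl/fl. The demethylase Cyp51 averaged 176 ± 11.8 CPM in Ripk3-KO and 146 ± 2.10 CPM in VilCre-Ripk3fl/fl, against 232 ± 5.10 in WT.

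The last steps were mixed. Of the genes for sterol C14 reduction, Lbr, which also anchors chromatin at the inner nuclear membrane, fell 1.59-fold and 1.80-fold (adjusted p = 9.26e-11 and 1.60e-12), whereas Tm7sf2 averaged 25.8 ± 1.30 CPM in Ripk3-KO and 24.9 ± 2.58 CPM in VilCre-Ripk3fl/fl, against 25.4 ± 2.78 in WT (adjusted p = 0.829 and 0.821), with all groups overlapping. The isomerase Ebp averaged 80.3 ± 5.08 CPM in Ripk3-KO and 89.8 ± 12.4 CPM in VilCre-Ripk3fl/fl, against 85.8 ± 1.58 in WT (adjusted p = 0.285 and 0.491). Ebp and Nsdhl are on the X chromosome, and sex moved with Ripk3-KO. Sc5d, the lathosterol desaturase, had 119, 120 and 116 CPM in Ripk3-KO (not called, adjusted p = 0.101) and 85.5, 90.3 and 93.0 CPM in VilCre-Ripk3fl/fl (1.23-fold lower, adjusted p = 1.24e-05), against 112, 109 and 112 CPM in WT. Dhcr7, which reduces 7-dehydrocholesterol to cholesterol, had 61.5, 66.7 and 65.7 CPM in Ripk3-KO (log2 fold change 0.32, SE 0.059, adjusted p = 4.75e-05) and 51.1, 50.5 and 49.5 CPM in VilCre-Ripk3fl/fl (not called, adjusted p = 0.647), against 53.6, 52.2 and 48.9 CPM in WT. Every Ripk3-KO library was above every WT library for both genes, and both were higher in Ripk3-KO than in VilCre-Ripk3fl/fl, 1.32-fold for Sc5d and 1.28-fold for Dhcr7 (adjusted p = 4.88e-07 and 3.64e-05).

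**Figure D2:**
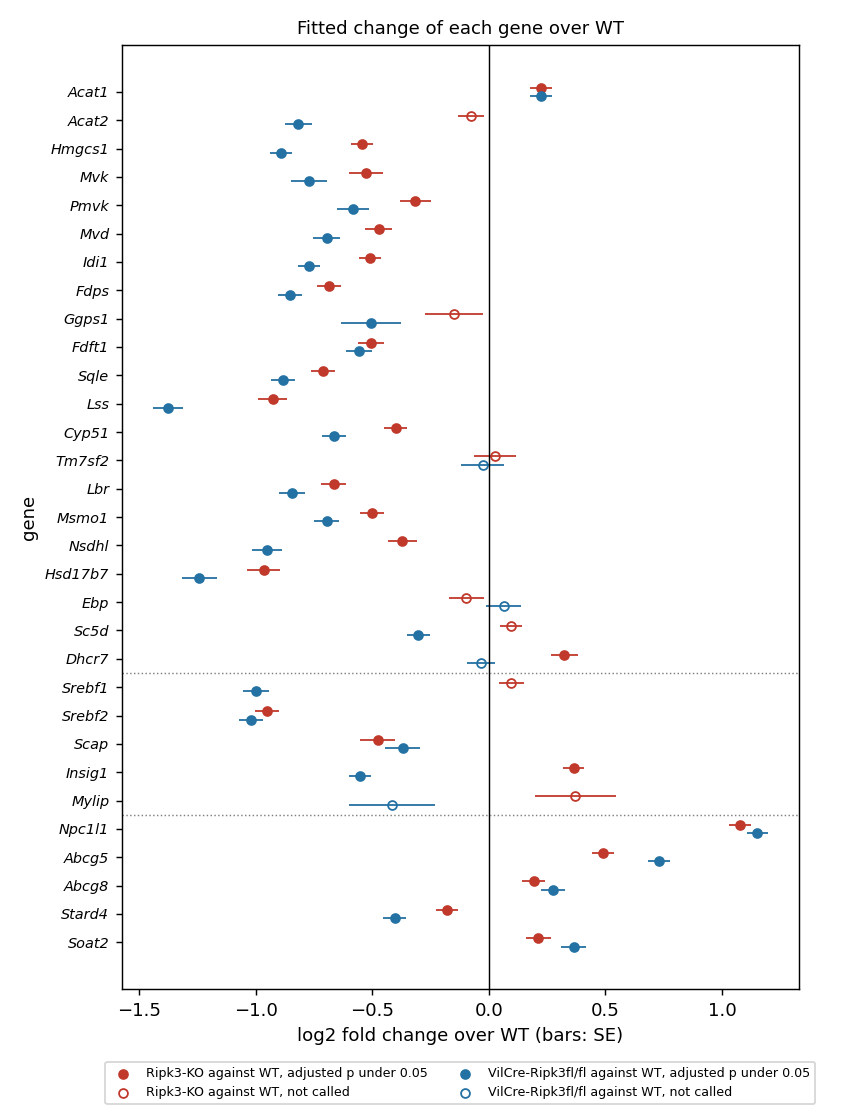
Points are fitted log2 fold changes over WT with SE bars for 31 genes, red for Ripk3-KO and blue for VilCre-Ripk3fl/fl, filled where the adjusted p was under 0.05. Blue points lie further left than red ones for most enzymes, Srebf1 and Insig1 separate most, and Npc1l1 lies past 1 in both.

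Regulators of the pathway separated into those lower in both deletions and those that differed between them. Srebf2 (chromosome 15, 82147266 to 82205376), whose product SREBP-2 drives mainly sterol synthesis, had 123, 139 and 131 CPM in Ripk3-KO and 117, 130 and 127 CPM in VilCre-Ripk3fl/fl, against 254, 251 and 254 CPM in WT. The deletions overlapped each other and were below every WT library, 1.93-fold lower in Ripk3-KO (log2 fold change -0.95, SE 0.052, adjusted p = 3.01e-14) and 2.03-fold lower in VilCre-Ripk3fl/fl (-1.02, SE 0.052, 1.22e-14). Scap, the escort protein, fell 1.39-fold and 1.29-fold (adjusted p = 5.61e-06 and 0.000182). Srebf1 (chromosome 11, 60199089 to 60222581), whose products act more on fatty acid synthesis, had 153, 177 and 172 CPM in Ripk3-KO and 75.4, 80.8 and 78.8 CPM in VilCre-Ripk3fl/fl, against 159, 159 and 152 CPM in WT. Ripk3-KO overlapped WT (adjusted p = 0.129, or 0.0103 without Ripk3-KO library 1), and VilCre-Ripk3fl/fl was lower than WT (log2 fold change -1.001, SE 0.055, adjusted p = 5.67e-14). Insig1 (chromosome 5, 28071363 to 28078662), the retention protein, had 261, 258 and 271 CPM in Ripk3-KO and 135, 139 and 144 CPM in VilCre-Ripk3fl/fl, against 203, 202 and 209 CPM in WT. It moved in opposite directions, 1.29-fold higher in Ripk3-KO (adjusted p = 1.85e-07) and 1.47-fold lower in VilCre-Ripk3fl/fl (1.89e-10). Directly compared, Srebf1 and Insig1 were 2.14-fold and 1.89-fold higher in Ripk3-KO than in VilCre-Ripk3fl/fl (adjusted p = 1.38e-14 and 1.34e-14), while Srebf2 did not pass (log2 fold change 0.07, SE 0.052, adjusted p = 0.355). Mylip, a ubiquitin ligase that marks lipoprotein receptors for degradation, had the lowest counts of the 31 genes, at 6.31 ± 1.05 CPM in Ripk3-KO and 3.66 ± 0.205 CPM in VilCre-Ripk3fl/fl, against 4.87 ± 0.892 in WT. It did not pass against WT (adjusted p = 0.0740 and 0.0591), though it did in Ripk3-KO without WT library 1 (0.0310) and in VilCre-Ripk3fl/fl without WT library 2 (0.0350), and was 1.72-fold higher in Ripk3-KO than in VilCre-Ripk3fl/fl (adjusted p = 0.00137).

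In CPM, most genes of sterol uptake, efflux and esterification went the other way from the enzymes. Relative to the enterocyte markers given below, Abcg8 and Soat2 were below WT in both deletions. Npc1l1 (chromosome 11, 6211013 to 6230143) had 569, 616 and 611 CPM in Ripk3-KO and 617, 643 and 631 CPM in VilCre-Ripk3fl/fl, against 292, 284 and 274 CPM in WT. Every library of either deletion was far above every WT library, 2.11-fold in Ripk3-KO (log2 fold change 1.08, SE 0.046, adjusted p = 1.97e-16) and 2.22-fold in VilCre-Ripk3fl/fl (1.15, SE 0.046, 7.93e-17). Between the deletions Npc1l1 did not pass (log2 fold change -0.07, SE 0.045, adjusted p = 0.237). Abcg5 (chromosome 17, 84658234 to 84683011) had 162, 160 and 154 CPM in Ripk3-KO and 183, 194 and 186 CPM in VilCre-Ripk3fl/fl, against 116, 108 and 115 CPM in WT. It rose 1.40-fold and 1.66-fold (adjusted p = 3.35e-09 and 2.22e-12) and was 1.18-fold lower in Ripk3-KO than in VilCre-Ripk3fl/fl (0.000300). Its partner Abcg8 (chromosome 17, 84676302 to 84700333), with which it shares 82 exon bases on opposite strands, rose less, 1.14-fold and 1.21-fold (adjusted p = 0.00176 and 4.49e-05), though not in the authors' TPM for VilCre-Ripk3fl/fl. Soat2 averaged 155 ± 1.77 CPM in Ripk3-KO and 172 ± 2.77 CPM in VilCre-Ripk3fl/fl, against 134 ± 11.1 in WT, and rose 1.16-fold and 1.29-fold (adjusted p = 0.00128 and 2.30e-06). Stard4, a soluble carrier that moves cholesterol between membranes, went with the enzymes, at 145 ± 5.23 CPM in Ripk3-KO and 124 ± 5.54 CPM in VilCre-Ripk3fl/fl, against 164 ± 0.716 in WT (adjusted p = 0.00264 and 1.36e-07).

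**Figure D3:**
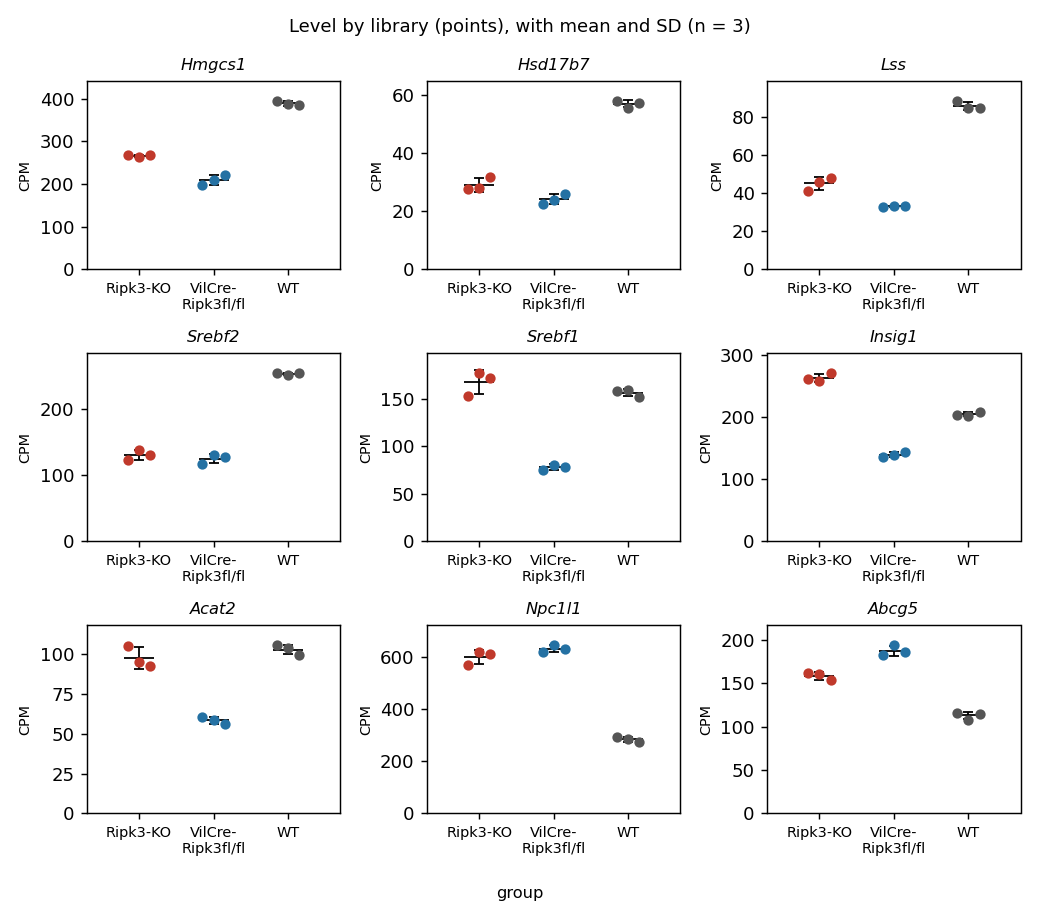
CPM of 9 genes by library (points), with mean and SD for 3 libraries per group, on axes that start at 0. Hmgcs1, Hsd17b7, Lss and Srebf2 are lower in both deletions than in WT, Srebf1 and Acat2 are low in VilCre-Ripk3fl/fl only, Insig1 lies on either side of WT, and Npc1l1 and Abcg5 are higher in both deletions.

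In CPM, the size of the decrease differed between the deletions. These 2 groups also differed in sex markers, total counts, and fat and pancreas markers, and the part of these was not tested. Over the 21 enzymes the median log2 fold change of Ripk3-KO over VilCre-Ripk3fl/fl was 0.26, and Acat1, Fdft1, Tm7sf2 and Ebp did not pass. The other 17 were called higher in Ripk3-KO, as were 16.6% of all genes. After Acat2 the largest of these differences was that of Nsdhl, which averaged 41.5 ± 0.642 CPM in Ripk3-KO and 27.7 ± 0.325 CPM in VilCre-Ripk3fl/fl (log2 fold change 0.58, adjusted p = 7.42e-08), followed by Lss at 45.1 ± 3.50 CPM in Ripk3-KO and 33.1 ± 0.343 CPM in VilCre-Ripk3fl/fl (1.37-fold, 4.61e-06). Several smaller differences missed the threshold with 1 library fewer. That of Ggps1 had an adjusted p of 0.0357 with all libraries, and of 0.118, 0.0815, 0.177 and 0.192 without Ripk3-KO libraries 2 or 3 or VilCre-Ripk3fl/fl libraries 1 or 2. Its log2 fold change was 0.32, 0.36, 0.25 and 0.25 without them, and 0.59 without VilCre-Ripk3fl/fl library 3, against 0.36 with all. Soat2, lower in Ripk3-KO in CPM (log2 fold change -0.15, adjusted p = 0.0300) but higher in the authors' TPM (0.072), had an adjusted p of 0.0635, 0.0815, 0.0728 and 0.0503 without those same 4 libraries, and its log2 fold change in CPM stayed between -0.16 and -0.14. Mvk (0.0146) and Fdps (0.0142) were at 0.0632 and 0.0623 without Ripk3-KO library 1, at 0.0600 and 0.0923 without VilCre-Ripk3fl/fl library 2, and at 0.0925 and 0.0738 without VilCre-Ripk3fl/fl library 3. Lbr (0.0136) was at 0.0504 without Ripk3-KO library 1 and 0.0733 without VilCre-Ripk3fl/fl library 1, Hsd17b7 (0.00649) at 0.0646 without Ripk3-KO library 3, and Sqle (0.0119) at 0.0960 without VilCre-Ripk3fl/fl library 2. Ebp (0.115) passed at 0.00246 without VilCre-Ripk3fl/fl library 3.

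Levels of different genes were set side by side on the authors' TPM, which divides by gene length. In WT the order was led by Fdps (311 ± 3.78 TPM) and Hmgcs1 (296 ± 4.45 TPM), with Npc1l1 at rank 5 (156 ± 5.24 TPM). Npc1l1 had the highest level of the 31 in both deletions, at 318 ± 22.7 TPM in Ripk3-KO and 287 ± 11.4 TPM in VilCre-Ripk3fl/fl. Fdps was at rank 4 with 186 ± 3.74 TPM in Ripk3-KO and at rank 3 with 142 ± 6.75 TPM in VilCre-Ripk3fl/fl. The lowest levels were those of Mylip, at 4.89 ± 0.866 TPM in Ripk3-KO and 2.43 ± 0.126 TPM in VilCre-Ripk3fl/fl, against 3.91 ± 0.693 TPM in WT, and Lss was next lowest in both deletions (9.93 ± 1.05 and 6.23 ± 0.187 TPM, against 19.6 ± 0.405 TPM in WT). TPM columns share a fixed total. Over 12572 genes above 1 TPM in all groups the median log2 ratio of TPM was -0.31 in VilCre-Ripk3fl/fl over WT and -0.10 in Ripk3-KO over WT. On this scale Acat1 and Abcg8 of VilCre-Ripk3fl/fl were at or below WT (90.9 ± 1.68 against 94.3 ± 1.77 TPM, and 77.2 ± 3.87 against 77.3 ± 2.32 TPM), whereas both were higher in CPM. Between the deletions, Soat2 was at 166 ± 6.34 TPM in Ripk3-KO and 158 ± 1.92 TPM in VilCre-Ripk3fl/fl, whereas it was lower in Ripk3-KO in CPM.

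**Figure D4:**
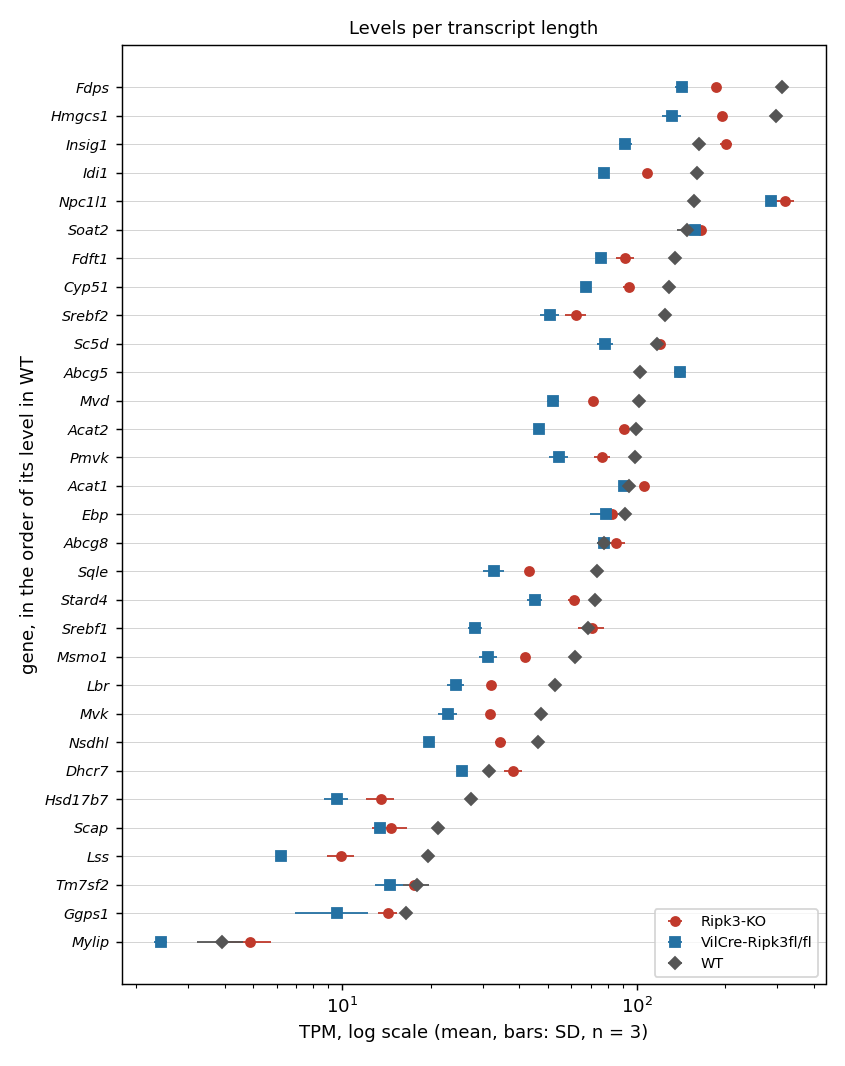
Mean TPM (log axis, bars SD, n = 3) of 31 genes in the order of their WT level, with circles for Ripk3-KO, squares for VilCre-Ripk3fl/fl and diamonds for WT. Npc1l1 stands to the right of WT in both deletions and most enzymes stand to the left, with the squares furthest left.

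Markers of several cell types moved with the groups, and their part in these results was not tested. In tissue RNA, fewer cells of a type and less RNA per cell cannot be told apart. Enterocyte markers, which check the labelled tissue, summed to 40279 to 41806 CPM in Ripk3-KO and 35042 to 37425 CPM in VilCre-Ripk3fl/fl, against 23067 to 23098 CPM in WT. Beside 27.3% and 27.2% of all genes, 13 and 12 of these 15 markers were higher. The most abundant over all libraries were Apoa4, at 15946 ± 417 CPM in Ripk3-KO and 13032 ± 1075 CPM in VilCre-Ripk3fl/fl, against 6839 ± 34.0 CPM in WT, and Anpep, at 4192 ± 112 CPM in Ripk3-KO and 4538 ± 88.5 CPM in VilCre-Ripk3fl/fl, against 2280 ± 27.8 CPM in WT, where Rbp2 was higher (2934 CPM). Per 1000 CPM of these markers, Npc1l1 had 14.6 ± 0.878 CPM in Ripk3-KO and 17.4 ± 0.784 CPM in VilCre-Ripk3fl/fl, against 12.3 ± 0.388 in WT, with no overlap, a ratio chosen after the values were seen. On the same ratio Abcg5 had 3.87 ± 0.0508 in Ripk3-KO and 5.17 ± 0.244 CPM in VilCre-Ripk3fl/fl, against 4.90 ± 0.176 in WT. Abcg8 had 3.28 ± 0.192 in Ripk3-KO and 3.92 ± 0.231 CPM in VilCre-Ripk3fl/fl, against 5.10 ± 0.142 in WT, and Soat2 had 3.79 ± 0.101 in Ripk3-KO and 4.74 ± 0.126 CPM in VilCre-Ripk3fl/fl, against 5.80 ± 0.485 in WT. On this ratio every library of both deletions was below WT for Abcg8 and Soat2, which were higher than WT in CPM, as was every Ripk3-KO library for Abcg5. Per 1000 CPM of all 15 markers, the 21 enzymes together had 48.3 ± 0.806 in Ripk3-KO and 46.4 ± 1.51 CPM in VilCre-Ripk3fl/fl, against 113 ± 1.18 in WT. Libraries of Ripk3-KO (47.4 to 49.0) and VilCre-Ripk3fl/fl (45.2 to 48.1) overlapped on this ratio. Proliferating cell markers summed to 796 to 822 CPM in Ripk3-KO and 751 to 780 CPM in VilCre-Ripk3fl/fl, against 1171 to 1200 CPM in WT. Of 14 such markers 13 and 12 fell, where 28.1% and 28.4% of all genes fell. The enzymes were lower where enterocyte markers were higher and proliferating cell markers were lower. Summed, the 21 enzymes had 1941 to 2049 CPM in Ripk3-KO and 1674 to 1691 CPM in VilCre-Ripk3fl/fl, against 2593 to 2645 CPM in WT. Their ratio to enterocyte markers is only 1 possible scaling. A ratio of these sums to those of the proliferating cell markers was not computed. Of the ileal bile acid genes, the basolateral transporter subunit Slc51a averaged 112 ± 6.08 CPM in Ripk3-KO and 164 ± 13.5 CPM in VilCre-Ripk3fl/fl, against 70.2 ± 2.47 CPM in WT, and its partner Slc51b 44.2 ± 1.76 CPM in Ripk3-KO and 71.2 ± 2.75 CPM in VilCre-Ripk3fl/fl, against 77.0 ± 1.13 CPM in WT. The ileal bile acid binding protein Fabp6 averaged 0.479 ± 0.154 CPM in Ripk3-KO and 1.07 ± 0.374 CPM in VilCre-Ripk3fl/fl, against 1.02 ± 0.104 CPM in WT.

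**Figure D5:**
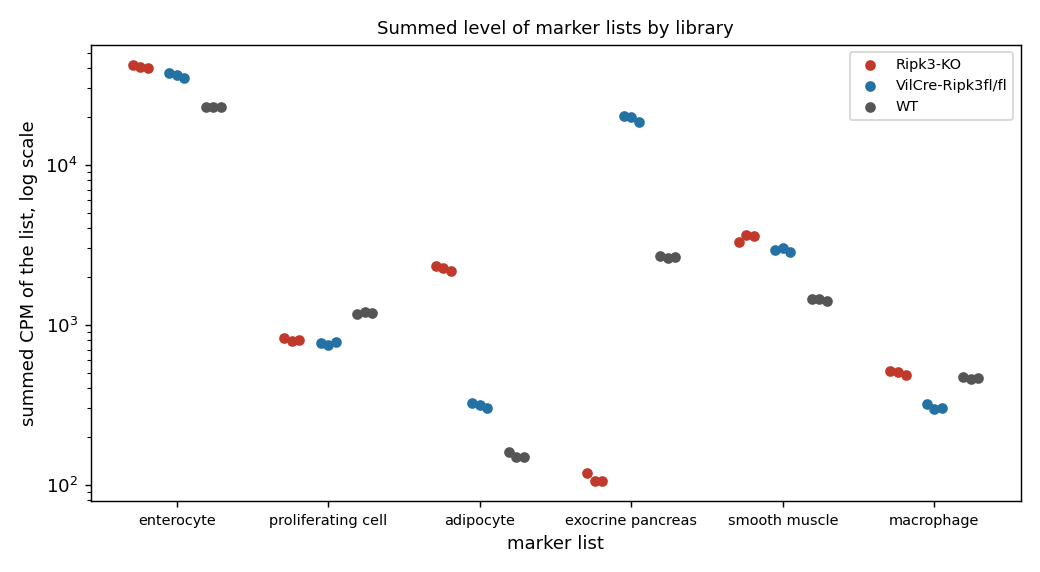
Summed CPM (log axis) of 6 marker lists in each library, red for Ripk3-KO, blue for VilCre-Ripk3fl/fl and grey for WT. Enterocyte and smooth muscle markers are higher in both deletions than in WT, adipocyte markers are highest in Ripk3-KO, and exocrine pancreas markers are highest in VilCre-Ripk3fl/fl.

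Fat and pancreas markers also differed. Adipocyte markers summed to 2167 to 2317 CPM in Ripk3-KO and 303 to 323 CPM in VilCre-Ripk3fl/fl, against 148 to 160 CPM in WT. In each deletion 12 of 12 were higher, where 27.3% and 27.2% of all genes were higher. The sum was led by Fabp4 (580 CPM) and Car3 (491 CPM) in Ripk3-KO, by Lipe (118 CPM) and Cidec (89.4 CPM) in VilCre-Ripk3fl/fl, and by Cidec (60.7 CPM) and Lipe (55.5 CPM) in WT. In WT, Plin1 and Adipoq were at 0.556 ± 0.136 and 0.793 ± 0.298 CPM, and Slc7a10 had no counts. Fat cells are known to express Srebf1 and Insig1, and the part of fat in the levels of these genes was not tested. Exocrine pancreas markers, led by Ctrb1 and Cela2a, summed to 106 to 119 CPM in Ripk3-KO and 18400 to 20062 CPM in VilCre-Ripk3fl/fl, against 2626 to 2677 CPM in WT. In Ripk3-KO 16 of 16 were lower, beside 28.1% of all genes. In VilCre-Ripk3fl/fl 16 of 16 were higher, beside 27.2% of all genes. With TMM factors computed without these 2 lists, 17 members fell and 7 rose in Ripk3-KO, and 22 fell and 5 rose in VilCre-Ripk3fl/fl. Smooth muscle markers summed to 3294 to 3646, 2860 to 3033 and 1398 to 1455 CPM in Ripk3-KO, VilCre-Ripk3fl/fl and WT, macrophage markers to 482 to 514, 296 to 318 and 456 to 470 CPM, T cell markers to 26.9 to 29.1, 26.1 to 27.1 and 39.6 to 42.6 CPM, and hepatocyte markers to 2.51 to 2.79, 2.08 to 3.20 and 8.67 to 9.08 CPM.

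Other genes of the sterol pathway, from lists that do not include the 31, held calls in both directions, near the background of all genes in VilCre-Ripk3fl/fl. Of 21 genes of sterol sensing, transport and storage, 9 rose and 6 fell in Ripk3-KO (71.4% called, beside 55.4% of all genes, median log2 fold change 0.05), and 6 rose and 7 fell in VilCre-Ripk3fl/fl (61.9% called, beside 55.6%, median 0.06). Nr1h3, the oxysterol receptor LXR alpha, averaged 51.6 ± 2.87 CPM in Ripk3-KO and 47.7 ± 4.26 CPM in VilCre-Ripk3fl/fl, against 19.2 ± 1.29 in WT, 2.68-fold and 2.48-fold higher (adjusted p = 2.98e-14 and 2.82e-13). Its part in the levels of the other genes was not tested. Gramd1b, which moves cholesterol from the plasma membrane to the endoplasmic reticulum, averaged 97.9 ± 5.61 and 69.9 ± 1.18 CPM, against 34.2 ± 2.02 in WT, 2.87-fold and 2.05-fold higher (adjusted p = 5.70e-17 and 3.01e-13). Mbtps2, a protease that releases SREBP, fell 1.62-fold and 1.57-fold, and the sterol carrier Stard5 2.06-fold and 1.94-fold. Lipa, the lysosomal lipase that frees stored cholesterol, was at 76.0 ± 2.04 CPM in Ripk3-KO (not called, adjusted p = 0.961) and 51.3 ± 1.69 in VilCre-Ripk3fl/fl, where it fell 1.48-fold, against 76.1 ± 0.680 in WT. Insig2, the relative of Insig1, rose 1.64-fold in Ripk3-KO and was not called in VilCre-Ripk3fl/fl (44.2 ± 3.21 against 41.7 ± 2.06 CPM in WT, adjusted p = 0.301).

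In the dolichol branch, Nus1, a subunit of the enzyme that makes dolichol precursors, averaged 114 ± 8.25 CPM in Ripk3-KO and 133 ± 5.66 CPM in VilCre-Ripk3fl/fl, against 190 ± 4.14 CPM in WT (1.67-fold and 1.43-fold lower, adjusted p = 9.72e-12 and 1.22e-08). Its partner subunit Dhdds averaged 35.8 ± 0.793 CPM in Ripk3-KO (not called, adjusted p = 0.153) and 39.9 ± 1.16 CPM in VilCre-Ripk3fl/fl (1.21-fold higher, adjusted p = 0.00157), against 33.1 ± 1.81 CPM in WT.

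Fatty acid synthesis genes under SREBP-1 were mostly higher in Ripk3-KO than in VilCre-Ripk3fl/fl. Of 17, 11 rose and 4 fell in Ripk3-KO (median 1.38), where 27.3% of all genes were higher and 28.1% lower. In VilCre-Ripk3fl/fl 4 rose and 10 fell (median -0.38), where 27.2% of all genes were higher and 28.4% lower. Between the deletions 15 were higher in Ripk3-KO, as were 16.6% of all genes. Scd1, a desaturase abundant in fat, averaged 4382 ± 126 CPM in Ripk3-KO and 111 ± 8.68 CPM in VilCre-Ripk3fl/fl, against 98.0 ± 2.60 in WT. Thrsp, a lipogenic protein of fat and liver, was at 287 ± 10.3 and 9.54 ± 1.08 CPM, against 2.14 ± 0.377 in WT. Me1, which supplies NADPH, was at 396 ± 9.95 and 56.1 ± 5.31 CPM, against 36.4 ± 2.98 in WT. The same Ripk3-KO libraries held the highest adipocyte marker sums, and the part of fat was not tested. Scd2, a related desaturase, fell 1.48-fold and 2.20-fold, to 376 ± 10.1 and 253 ± 18.02 CPM, against 557 ± 10.4 in WT, and Elovl5, a fatty acid elongase, fell to 37.4 ± 1.47 and 24.4 ± 1.32 CPM, against 47.8 ± 0.980 in WT. Aacs, which activates acetoacetate for lipid synthesis, was at 94.4 ± 4.04 CPM in Ripk3-KO (not called, adjusted p = 0.674) and fell 1.70-fold to 54.2 ± 2.60 CPM in VilCre-Ripk3fl/fl, against 92.5 ± 1.22 in WT.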

How the data were processed

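The deposited table gives whole-number counts per gene for 9 libraries, without normalization by the authors, and TPM that the authors computed from gene length and library size. The submitters' processing notes name Trimmomatic, STAR, HTSeq, DESeq2 and mm10. Roles, versions, annotation and use of strand in counting are not given in the sources used here, so genes overlapping on opposite strands are uncertain. On the same strand, Tm7sf2 shares 12.1% of its exon bases with the more abundant Vps51, and Fdps 26.7% with the far less abundant Gm43738. Counts of these genes may be uncertain whether or not strand was used. Per the labels' protocols, RNA was taken up in TRIzol, ribosomal RNA was removed and stranded kits were used. Groups come from the sample titles.

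Of 48708 genes, 23245 had 0 counts throughout, and filterByExpr kept 16539. The tests used edgeR 4.0.16 (R 4.3.3) with TMM factors (0.932 to 1.04), 1 mean per group over all 9 libraries (6 residual degrees of freedom), a robust quasi-likelihood fit, 2-sided tests and Benjamini-Hochberg adjustment over all genes, with a threshold of 0.05. The SE of a log2 fold change comes from the F statistic. The common biological coefficient of variation was 0.0812. The steps were tested on simulated data. DESeq2 1.42.0, other scalings and filters, 2-group fits, a replicate block and leaving out each library were alternatives. A floor of 3 counts corresponded to 0.0708 to 0.127 CPM per library, for counting error only. 1 gene of the other lists, and the counts of its list, are not reported here. The 31 genes and the other lists were chosen with earlier results of these data known. Named genes are all 31, Ripk3, up to 3 higher and 3 lower called genes of each pathway list by smallest p, and the 2 most abundant markers of each list, with a few of each chosen for the text; Plin1, Adipoq and Fabp6 are given as defining markers. Symbols, identifiers and positions of 24 of the 31 match GENCODE M21 exactly, and the positions given are those of the deposited table.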

Additional observations from a re-analysis of the deposited data

How the results depend on the processing

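The numbers of genes and of the 31 genes called stayed within 1.5 times of their values in all 3 comparisons and under all 15 alternatives. Of the 31 genes, 24 to 26 were called in Ripk3-KO against WT, 27 to 28 where VilCre-Ripk3fl/fl was set against WT and 18 to 24 in Ripk3-KO against VilCre-Ripk3fl/fl. No call against WT was lost. Between the deletions, 20 of 465 values missed the threshold, for 7 genes, Soat2 among them without the filter on low counts (adjusted p = 0.0530) and Ggps1 when only the 2 groups compared entered the fit (0.0663). Without Ripk3-KO replicate 1, Acat2 (adjusted p = 0.0420) and Srebf1 (0.0103) passed in Ripk3-KO against WT. Mylip passed without WT replicate 1 in Ripk3-KO (0.0310) and without WT replicate 2 in VilCre-Ripk3fl/fl (0.0350), where Ebp passed without replicate 3 (0.0331).

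Among the tested alternatives, signs turned only for differences that were not called. Leave-one-out log2 fold changes of Tm7sf2 ran from -0.038 to 0.11 in Ripk3-KO against WT, from -0.11 to 0.058 for VilCre-Ripk3fl/fl against WT and from -0.0027 to 0.14 between the deletions. Those of Ebp ran from -0.034 to 0.17 for VilCre-Ripk3fl/fl against WT. Between the deletions those of Acat1 ran from -0.023 to 0.019 and those of Fdft1 from -0.029 to 0.10, and Acat1 was also at -0.0097 with RLE factors and at -0.0097 with DESeq2. The authors' TPM, an untested scaling added after the data were seen, turned signs of called genes too. On it Tm7sf2 was at -0.031 in Ripk3-KO over WT, and Acat1 at -0.054, Ebp at -0.21 and Abcg8 at -0.0015 in VilCre-Ripk3fl/fl over WT, where Acat1 and Abcg8 had been called higher. In Ripk3-KO over VilCre-Ripk3fl/fl, Ebp was at 0.061, Scap at 0.12, Npc1l1 at 0.15, Abcg8 at 0.14 and Soat2, called lower in CPM, at 0.072. The cause was not tested. The TPM columns share a fixed total, and their median log2 ratio over all genes was -0.31 in VilCre-Ripk3fl/fl over WT and 0.22 between the deletions.

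Replicate numbers did not pair the libraries: residuals of libraries with the same number correlated between -0.04 and 0.09, and 2 of 18 best matches were with the own number. With the replicate block 24, 27 and 24 of the 31 genes were called in the 3 comparisons, against 24, 27 and 23 without it. At this depth all 31 genes had counts in every library, Mylip the fewest.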
